A study of Mus musculus with 9 samples.

Results

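The genes described here are 44 genes of mitosis and the G2 phase of the cell cycle, a list taken by gene name from the table of unique molecular identifier (UMI) counts of single cells from mouse livers. All 44 were among the 27998 genes of the table. The study asked how the cells of the liver microenvironment change when the transcriptional coactivator YAP is switched on in hepatocytes. Single cells of collagenase-treated livers were profiled by droplet-based 3' RNA sequencing in 9 libraries of C57BL/6 mice, which all carried the ROSA26-rtTA-IRES-EGFP transactivator allele and received doxycycline food. The 2 WT libraries had no YAP transgene and were fed doxycycline for 7 days. The 4 YAP3d libraries carried tetYAP, a tetracycline-driven active YAP, and were fed doxycycline for 3 days. The 3 YAP7d libraries carried the same transgene and were fed doxycycline for 7 days, so that WT shares the feeding time of YAP7d but not of YAP3d. In the study's methods these mice were crossed to Alb-Cre mice, so that albumin-expressing cells make the transactivator, and the cells were prepared by a protocol for liver cells other than hepatocytes. Ages were not given, and nothing states whether libraries share litters, so p-values measure the spread between these libraries.

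Mitosis is driven by the kinase Cdk1 bound to cyclins A and B. Aurora and Polo kinases and the motor proteins of the spindle move the chromosomes, and the anaphase-promoting complex with its activator Cdc20 ends the process by marking cyclins for destruction. Most of these genes are transcribed only from late S phase to mitosis, so their transcripts mark cycling cells. In an adult liver at rest few cells divide, whether hepatocytes, endothelial cells or resident macrophages (Kupffer cells).

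Of 8562 cells 35 held fewer than 200 genes and were dropped. The other 8527 came to 281 to 2551 cells and 1288940 to 25056881 UMIs per library. A cell held a median of 3231 to 5083 UMIs in the libraries of WT and YAP3d and of 5717 to 11472 in those of YAP7d. Cells were grouped without the members, and 13 classes were named by the type they resemble. Endothelial-like cells made up 35.5 to 53.0% of the cells of WT libraries and 3.49 to 4.99% of those of YAP7d, and macrophage-like cells 4.73 to 5.95% and 24.5 to 45.6%. Only 3 WT cells were hepatocyte-like, so the labelled whole liver was a sample with few hepatocytes. Yap1 was at 15.7 and 11.0 counts per 1000000 UMIs (CPM) in WT, 5.29 to 12.9 in YAP3d and 1.52 to 5.53 in YAP7d, and whether transcripts of the transgene count towards it is not given in the sources used here. Transcripts of the predicted gene Gm10709 stood at 347 to 611 CPM in YAP3d replicates 1 and 2 and in the YAP7d libraries, against 3.65 to 11.2 in the other 4 libraries. The heat-shock gene Hspa1a was at 9.14 and 11.5 CPM in YAP7d replicates 3 and 2 and at 315 to 1339 in the others. There were 47 cells whose barcode occurred in more than 1 library.

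The promoters of the members were searched for 2 sequence elements that the list did not use. RefSeq promoters of GRCm38.p6, the assembly also called mm10, were found for 36 of the 44 members, in 38 windows of 250 bases before to 50 bases after the start of transcription. TTTGAA, the core of the cell cycle genes homology region (CHR), occurred on either strand in 29 of these 38 windows (76.3%), against 17.9% of the 32851 windows of all genes. CCAAT, the box bound by the factor NF-Y, occurred in 31 (81.6%), against 37.4%. Both occurred in 26 (68.4%), against 6.95%. In the 250 bases before the start alone TTTGAA occurred in 14 of the 38 (36.8%), against 16.0%, and CCAAT in 31 (81.6%), against 33.8%. The windows of 7 members are printed from 120 bases before the start up to the start, 5′ to 3′ on the strand of the gene, with both elements in capitals on whichever strand they lie (TTCAAA and ATTGG are the reverse complements). Cdc20, Cdk1, Ube2c, Top2a, Kif11 and Ccnb1 are shown as regulators and machinery of mitosis, and Cenpa because it was the 1 tested member not called in endothelial-like cells.
Cdc20: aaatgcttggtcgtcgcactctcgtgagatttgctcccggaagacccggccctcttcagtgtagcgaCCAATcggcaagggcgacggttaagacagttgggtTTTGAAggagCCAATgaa
Cdk1: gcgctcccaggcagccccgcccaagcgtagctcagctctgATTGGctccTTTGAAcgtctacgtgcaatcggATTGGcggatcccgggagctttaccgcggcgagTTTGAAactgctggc
Ube2c: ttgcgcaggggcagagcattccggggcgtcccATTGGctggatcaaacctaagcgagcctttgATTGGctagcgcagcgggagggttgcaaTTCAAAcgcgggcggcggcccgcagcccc
Top2a: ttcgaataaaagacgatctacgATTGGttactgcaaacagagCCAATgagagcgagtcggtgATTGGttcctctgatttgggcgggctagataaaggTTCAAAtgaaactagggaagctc
Kif11: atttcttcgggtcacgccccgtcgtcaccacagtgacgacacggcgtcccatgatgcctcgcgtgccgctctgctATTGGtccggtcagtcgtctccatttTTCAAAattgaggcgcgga
Ccnb1: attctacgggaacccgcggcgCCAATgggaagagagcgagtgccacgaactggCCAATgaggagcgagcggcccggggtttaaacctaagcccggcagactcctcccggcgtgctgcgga
Cenpa: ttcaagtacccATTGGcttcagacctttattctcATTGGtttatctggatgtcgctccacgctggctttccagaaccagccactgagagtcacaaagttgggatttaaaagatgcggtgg
The windows lie at chr4:118437344-118437463 (-), chr10:69352913-69353032 (-), chr2:164769809-164769928 (+), chr11:99024190-99024309 (-), chr19:37376262-37376381 (+), chr13:100786487-100786606 (-) and chr5:30666766-30666885 (+). In Cdc20 and Cdk1 a TTTGAA began 18 and 15 bases before the start, and in Ube2c, Top2a and Kif11 the reverse complement began 29, 23 and 19 bases before it. In Ccnb1 no TTTGAA occurred in the window, which had CCAAT 99 and 67 bases before the start. In Cenpa CCAAT lay on the opposite strand 109 and 86 bases before the start, and a TTTGAA began 16 bases after it, outside the printed stretch. A match is a match of letters only.

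Over all cells of a library the members were higher in YAP7d than in WT and YAP3d. The summed level of 39 members was 429 and 454 CPM for WT, 286, 730, 650.2 and 329 for YAP3d and 1418, 1751 and 1285 for YAP7d. The sum leaves out Stmn1, Hmgb2, Lmnb1, Smc4 and Cks2, which many cells that do not divide also express. Cenpa stays in the sum, although 26.7% of its WT UMIs lay in cells with transcripts of at least 3 other members of the 39. For Cks2 and Smc4, which are left out, the share was 36.4 and 24.3%. All YAP7d libraries lay above all others, and WT lay within the range of YAP3d. Fewer cells of a type and less RNA per cell cannot be told apart in such sums, and the shares of the classes also differ between the groups.

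With edgeR's quasi-likelihood test and Benjamini-Hochberg adjustment over all genes tested, 38 of the 44 members were higher in YAP7d than in WT over all cells, against a background of 7.17% of 12071 genes. No member was lower, against 10.9% of all genes. The median log2 fold change of the 44 was 1.97, beside -0.02 for all genes. Without WT replicate 1 or 2 the count was 3 or 9, with 0.27 or 0.878% of all genes called higher in the same fits. Without YAP7d replicate 1 or 2 it was 23 or 20, with 4.64 or 3.24% of all genes. Against YAP3d 38 members were also higher, with a background of 6.64% and a median of 1.72, and none was lower (background 9.83%). The 6 members that did not pass against WT were Nek2, Cenpa, Hmmr, Nusap1, Ect2 and Smc4, at log2 fold changes from 0.49 for Smc4 to 2.12 for Hmmr. Between YAP3d and WT no member passed (background 0%), with 0 members at an unadjusted p below 0.05, 0 calls by DESeq2 and a median of 0.16. With a term for the 5 libraries that hold Gm10709 transcripts, 0 members were called between YAP7d and WT and 3 between YAP7d and YAP3d. That term separates all YAP7d libraries from both WT libraries, and the shares of all genes called higher with it were 0% and 0.157%. The labels name 2 versions of the reagent kit without giving that of each library, and the methods give 1 version for these livers. Whether the Gm10709 split marks a batch of library preparation or annotation was not tested.

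Mki67, which codes for the proliferation antigen Ki-67 that coats mitotic chromosomes (7:135689784-135716450, GRCm38.p6), was at 34.4 and 18.9 CPM over all cells in WT, at 18.6, 56.8, 45.8 and 12.6 in YAP3d and at 107, 147 and 48.4 in YAP7d. Cdk1, the mitotic kinase (10:69335146-69352912), was at 17.2 and 19.6 CPM in WT, 14.0, 19.5, 26.4 and 13.6 in YAP3d and 54.6, 69.9 and 55.5 in YAP7d. Cdk1 did not overlap between YAP7d and the other groups, whereas Mki67 of YAP7d replicate 3 lay below that of YAP3d replicate 2. The log2 fold changes of YAP7d over WT were 2.08 ± 0.64 (SE) for Mki67 (adjusted p = 0.0473 with edgeR) and 1.85 ± 0.29 for Cdk1 (adjusted p = 0.00474).

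**Figure D1:**
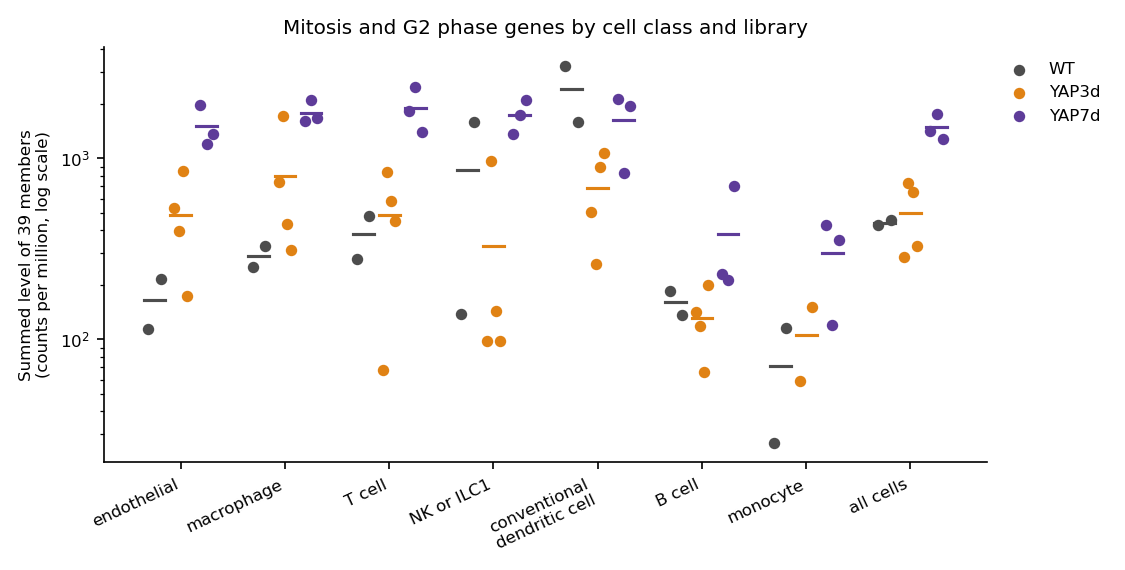
Summed level of 39 members (CPM, UMIs of the class, log scale) in each library with at least 10 cells, for 7 classes and all cells. Each point is 1 library and each bar a group mean. Over all cells and in cells like endothelial cells or T cells the YAP7d libraries lie above all WT and YAP3d libraries. In B-cell-like cells YAP7d replicates 1 and 2 do so by little (230 and 213 CPM, beside 201 in YAP3d replicate 4). Conventional dendritic cell-like cells of WT replicate 1 hold the highest sum of the classes shown, 3246 CPM.

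Endothelial cells line the vessels and sinusoids of the liver, and from which of these the endothelial-like cells came was not tested. The summed level of the members in this class was lower in both WT libraries than in every YAP7d library, although Cenpa was not. The sum of the 39 members was 114 and 216 CPM in WT, 531, 397, 856 and 175 in YAP3d and 1969, 1204 and 1356 in YAP7d, or 165 ± 72.8 (SD, n = 2), 489.6 ± 285 (n = 4) and 1509.8 ± 405 (n = 3). The YAP7d values rest on 24, 23 and 64 cells. Of these 111 cells 94 fell into 1 cluster that held 0 WT and 3 YAP3d cells, led by Cldn5, Pcdh17 and Fabp4, whereas the WT cells were spread over the other endothelial clusters, so the class holds different cells in the groups. All 12 endothelial markers were detected in every library, at a sum of 17102 to 18970 CPM in WT and 8428 to 8830.0 in YAP7d. Macrophage markers were at 227 to 436 CPM in WT and 366 to 797 in YAP7d, against 16035 or more in macrophage-like cells, and their part in the result was not tested.

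In the endothelial-like cells 30 members passed the filter on low counts, and 29 of them were higher in YAP7d than in WT, against a background of 9.63% of 7465 genes, and none was lower (background 8.75%). A member that is high only in YAP7d enters the test through that group, so the count does not stand for all 44, and Aurka, Bub1b, Ccnb1, Ect2, Hmmr, Kif11, Kif20a, Kif23, Kif2c, Ndc80, Nek2, Nuf2, Plk1 and Ttk were too low to be tested. The median log2 fold change of the 30 was 3.97, beside -0.04 for all genes. Against YAP3d 21 were higher (background 9%) and none lower (background 8.14%), with a median of 2.04. Between YAP3d and WT 0 passed (background 0%), although all 30 fold changes were above 0 with a median of 1.43. There, 10 members were at an unadjusted p below 0.05 with edgeR (1.89% of all genes, in either direction) and 16 with DESeq2, which called 0. Without WT replicate 1 or 2 the count between YAP7d and WT was 19, with 4.82 or 6.2% of all genes called higher. Without YAP3d replicate 4, YAP7d replicate 1 or YAP7d replicate 3 the count between YAP7d and YAP3d was 12, 13 or 12, with 7.95, 7.27 or 6.22% of all genes. Without YAP3d replicate 4 it was 4 between YAP3d and WT, where 0.0625% of all genes were called higher. With the Gm10709 term the counts were 2 against WT and 3 against YAP3d, with medians of 3.72 and 1.72.

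Among the regulators of entry into mitosis, Cdk1 was at 2.36 and 16.4 CPM in the endothelial-like cells of WT, at 24.3, 41.5, 48.3 and 10.8 in YAP3d and at 131, 90.2 and 88.0 in YAP7d. Ccna2, the cyclin A of S phase and mitosis, was at 0 and 1.30 CPM in WT, at 13.9, 13.8, 23.3 and 1.89 in YAP3d and at 45.2, 31.6 and 47.9 in YAP7d. Ccnb2, a cyclin B, was at 0 and 4.32 CPM in WT, at 3.47, 9.23, 19.7 and 3.24 in YAP3d and at 67.7, 36.1 and 79.1 in YAP7d. None of these 3 genes overlapped between YAP7d and the other groups, and YAP3d replicate 4 was the lowest of its group for each. How many of all genes separate in the same way is not given, so non-overlap describes these values only. Against WT the log2 fold change was 3.16 ± 0.56 (SE) for Cdk1 (adjusted p = 0.00111 with edgeR) and 4.43 ± 0.69 for Ccnb2 (adjusted p = 0.000416). Ccna2 had only 3 UMIs in WT against 60 in YAP7d, a ratio of rates of 47.1 with a 95% counting interval of 15.4 to 235. Ccnb1 (13:100778739-100786486), the main cyclin of mitosis, was not tested and was at 0 and 3.89 CPM in WT, 0, 0, 5.37 and 0.541 in YAP3d and 9.03, 0 and 21.2 in YAP7d.

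Cdc20 (4:118432901-118437343), which activates the anaphase-promoting complex, was at 0 and 1.73 CPM in WT endothelial-like cells, at 24.3, 9.23, 10.7 and 4.05 in YAP3d and at 36.1, 9.02 and 44.6 in YAP7d. Bub1, a kinase of the spindle checkpoint, was at 0 and 0.864 CPM in WT, at 6.94, 0, 3.58 and 0 in YAP3d and at 27.1, 31.6 and 6.69 in YAP7d. Cdca3, which helps to remove an inhibitor of entry into mitosis, was at 0 and 4.32 CPM in WT, 10.4, 18.5, 14.3 and 1.08 in YAP3d and 40.6, 27.1 and 47.9 in YAP7d. YAP7d lay above WT in each of these genes, but Cdc20 of YAP7d replicate 2 and Bub1 of YAP7d replicate 3 lay within the range of YAP3d. The log2 fold changes over WT were 4.70 ± 0.88 (SE) for Cdc20 (adjusted p = 0.00159 with edgeR) and 3.78 ± 0.86 for Cdca3 (adjusted p = 0.00647). Bub1 had 2 UMIs in WT and 19 in YAP7d, a ratio of 22.4 with an interval of 5.40 to 198.

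In the chromosomal passenger complex, which corrects the attachment of chromosomes and guides cytokinesis, Aurkb (11:69045624-69051664), its kinase, was at 1.18 and 2.16 CPM in WT, 0, 4.61, 17.9 and 1.62 in YAP3d and 36.1, 18.0 and 29.0 in YAP7d. Cdca8, its subunit borealin, was at 2.36 and 3.89 CPM in WT, 13.9, 0, 19.7 and 4.32 in YAP3d and 72.3, 49.6 and 52.4 in YAP7d. YAP7d lay above both other groups for both genes. Their log2 fold changes over WT were 3.88 ± 0.92 (SE) and 4.06 ± 0.62, with adjusted p = 0.00843 and 0.00035 from edgeR, and all 3 members of the complex were called.

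Prc1, which bundles the microtubules of the central spindle, was at 0 and 3.02 CPM in WT, at 17.3, 13.8, 26.9 and 1.89 in YAP3d and at 108, 54.1 and 30.1 in YAP7d. Anln, the cytokinesis scaffold anillin, was at 2.36 and 0 CPM in WT, 6.94, 13.8, 21.5 and 0 in YAP3d and 45.2, 31.6 and 12.3 in YAP7d. The mitotic kinase gene Pbk was at 1.18 and 1.73 CPM in WT, 6.94, 41.5, 28.7 and 2.97 in YAP3d and 104, 63.1 and 17.8 in YAP7d. The Prc1 locus lies almost wholly within an overlap with Rccd1, and its counts could hold reads of both genes. YAP7d replicate 3 was the lowest of its group for all 3 genes, and it overlapped YAP3d for Anln and Pbk. Prc1 differed from WT by 4.71 ± 0.96 (SE) on the log2 scale (adjusted p = 0.00289 with edgeR) and Pbk by 4.98 ± 1.08 (adjusted p = 0.00457). Anln had 2 UMIs in WT and 28 in YAP7d, a ratio of 33.0 with an interval of 8.32 to 286.

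Among genes of chromosome structure, Mki67 was at 1.18 and 5.62 CPM in WT endothelial-like cells, at 13.9, 13.8, 28.7 and 2.70 in YAP3d and at 131, 94.7 and 45.7 in YAP7d. Top2a (11:98992947-99024199), the topoisomerase that untangles sister chromosomes, was at 4.73 and 6.91 CPM in WT, 38.2, 27.7, 80.6 and 4.32 in YAP3d and 203, 90.2 and 80.2 in YAP7d. Mki67 of YAP7d lay above both other groups, whereas Top2a of YAP3d replicate 3 reached the lowest YAP7d value. Over WT the log2 fold changes were 4.27 ± 0.75 (SE) for Mki67 (adjusted p = 0.00104 with edgeR) and 4.24 ± 0.87 for Top2a (adjusted p = 0.00297). Smc4, a condensin subunit, was the called member with the smallest difference, at 1.07.

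**Figure D2:**
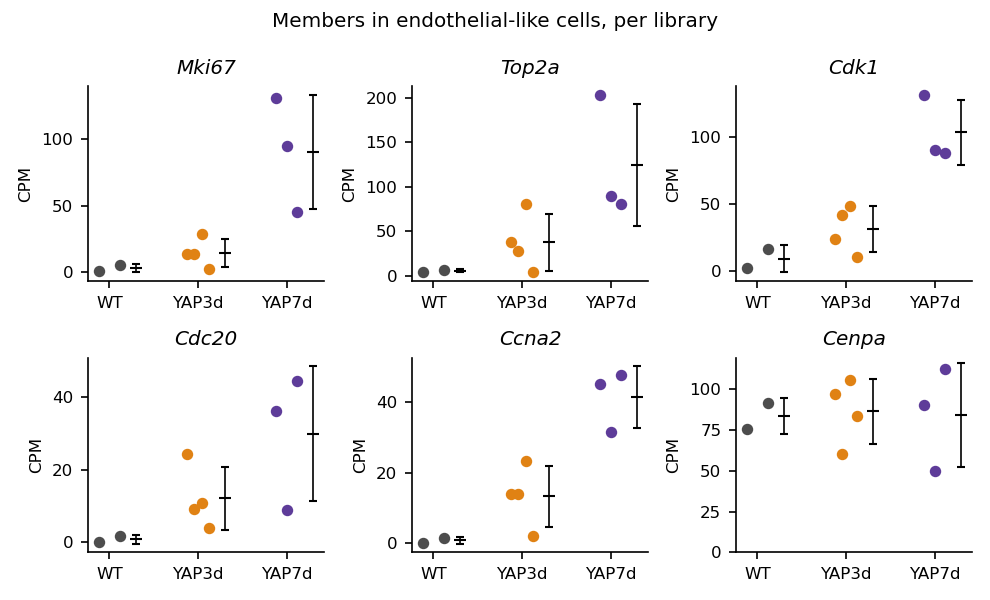
Levels of 6 members in endothelial-like cells (CPM) for each library of WT, YAP3d and YAP7d. Points are libraries, and bars beside them are mean and SD. Mki67, Cdk1 and Ccna2 of YAP7d lie above all other libraries, and Cenpa overlaps between the 3 groups.

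Cenpa was the tested member that did not pass in the endothelial-like cells. It codes for the histone H3 variant that marks centromeres (5:30666877-30674837). Its level was 75.7 and 91.6 CPM in WT, 97.1, 60.0, 106 and 83.5 in YAP3d and 90.3, 49.6 and 113 in YAP7d, so that the 3 groups overlapped and the WT level was above that of any other tested member in WT but Hmgb2. The log2 fold change of YAP7d over WT was 0.15 ± 0.29 (SE), with adjusted p = 0.779 from edgeR. Cenpa belongs to the 39 members, so it made up much of their WT sums of 114 and 216 CPM in this class. In macrophage-like cells Cenpa was at 21.8 and 11.6 CPM in WT, at 17.2, 102, 15.3 and 38.4 in YAP3d and at 80.1, 104 and 147 in YAP7d. There YAP7d lay above WT, by 3.01 ± 0.70 on the log2 scale (adjusted p = 0.0436 with edgeR). The difference of YAP7d to WT in Cenpa was larger in macrophage-like than in endothelial-like cells by 2.97 ± 0.63 on the log2 scale (adjusted p = 0.00804 with edgeR, test of the interaction), and it was not called without WT replicate 2.

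The cells that held Cenpa transcripts also differed. In WT endothelial-like cells 9 of 276 Cenpa UMIs (3.26%) lay in cells with transcripts of at least 3 other members of the 39, a kind that made up 0.900% of these cells. In YAP7d it was 115 of 132 UMIs (87.1%), in 45.0% of the cells. For Mki67 the shares were 11 of 14 UMIs (78.6%) in WT and 89 of 91 (97.8%) in YAP7d, and for Top2a 14 of 20 (70.0%) and 135 of 137 (98.5%). Cenpa transcripts of WT endothelial-like cells lay mostly outside cells with other members, whereas those of Mki67 and Top2a lay mostly inside them. Cells of YAP7d hold more UMIs, with a median of 11567 in endothelial-like cells against 3947 in WT, which raises the number of members seen per cell.

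Macrophage-like cells showed the same direction with fewer calls. The summed level of the 39 members was 251 and 326 CPM in WT, 740.4, 1709, 436 and 313 in YAP3d and 1603, 2095 and 1672 in YAP7d. YAP7d lay above WT, and YAP3d replicate 2 was as high as YAP7d. The class's own 12 markers, all detected in every library, summed to 26068 to 32458 CPM in WT and 16035 to 23643 in YAP7d, those of endothelial cells to 828 to 981 and 228 to 260.2, and those of monocytes to 1340 to 2165 and 2004 to 3475, and their part in the result was not tested. Of the 98 WT cells 58 were in a cluster led by Clec4f, Vsig4 and Fcna that held 0 YAP7d cells, and of the 819 YAP7d cells 380 and 439 were in the other clusters of the class, led by Cd5l and by C1qa. With edgeR 7 of the 36 tested members were higher in YAP7d than in WT, against a background of 0.285% of 6673 genes, namely Cdca3, Hmgb2, Cdc20, Birc5, Cenpa, Lmnb1 and Stmn1. None was lower (background 0.854%). All 36 fold changes were above 0, with a median of 2.43 (2.34 with Prc1 and Ndc80, which had 0 UMIs in WT, set to the limit of 3 counts over the group), beside 0.02 for all genes. Bub1, Ckap2, Ect2, Kif20a, Kif2c, Nek2, Nuf2 and Ttk were too low to be tested. The count was 0 without WT replicate 1, WT replicate 2 or YAP3d replicate 1 and 1 without YAP3d replicate 3, YAP7d replicate 2 or YAP7d replicate 3, with at most 0.138% of all genes called higher in these 6 fits. It was 23 without YAP3d replicate 2 (3.55% of all genes) and 18 without YAP3d replicate 4 (1.81%). It was also 0 with the Gm10709 term and when cells with under 500 genes or over 10% mitochondrial UMIs were dropped.

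Between YAP7d and YAP3d 0 of the 36 members passed in the macrophage-like cells (background 0.0749% higher and 0.24% lower), with 0 calls by DESeq2 and a median of 0.98. At an unadjusted p below 0.05 there were 14, and 12.1% of all genes in either direction. Without YAP3d replicate 2 the count of calls was 21, with 3.13% of all genes called higher. Between YAP3d and WT 0 passed (background 0%), with 11 at an unadjusted p below 0.05 (4.29% of all genes, in either direction) and 0 calls by DESeq2.

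Birc5, the passenger complex subunit survivin, was at 10.9 and 11.6 CPM in WT macrophage-like cells, at 86.1, 131, 23.0 and 9.15 in YAP3d and at 125, 162 and 189 in YAP7d. Cdca3 was at 0 and 7.72 CPM in WT, 34.4, 48.1, 7.65 and 14.6 in YAP3d and 65.8, 77.0 and 111 in YAP7d. Both were higher in every YAP7d than in every WT library, and Cdca3 also than in every YAP3d library. The log2 fold changes over WT were 3.76 ± 0.87 (SE) for Birc5 (adjusted p = 0.0436 with edgeR) and 3.71 ± 0.74 for Cdca3 (adjusted p = 0.0221).

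Stmn1, which codes for the microtubule-destabilizing protein stathmin, was at 87.1 and 108 CPM in WT macrophage-like cells, at 224, 298, 130.1 and 71.4 in YAP3d and at 347, 433 and 478 in YAP7d. Lmnb1, coding for a lamin of the nuclear envelope, was at 21.8 and 1.93 CPM in WT, 68.9, 72.2, 15.3 and 9.15 in YAP3d and 87.6, 93.1 and 86.0 in YAP7d. Cdc20 was at 10.9 and 3.86 CPM in WT, 17.2, 33.3, 30.6 and 12.8 in YAP3d and 36.5, 41.4 and 53.2 in YAP7d. YAP7d lay above both groups for all 3 genes. Stmn1 differed from WT by 2.02 ± 0.47 (SE) on the log2 scale (adjusted p = 0.0442 with edgeR). Lmnb1 had 3 UMIs in WT and 1307 in YAP7d (ratio 17.8, interval 6.07 to 86.3), and Cdc20 had 3 and 726 (ratio 9.88, interval 3.37 to 48.0).

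The other core genes missed the threshold in macrophage-like cells. Mki67 was at 0 and 17.4 CPM in WT, at 51.7, 146, 30.6 and 25.6 in YAP3d and at 119, 183 and 57.1 in YAP7d, with a log2 fold change over WT of 3.02 ± 0.82 (SE) and adjusted p = 0.0683 from edgeR. Cdk1 was at 32.7 and 25.1 CPM in WT, 34.4, 38.9, 38.3 and 16.5 in YAP3d and 67.2, 81.6 and 77.4 in YAP7d, a difference of 1.46 ± 0.44 with adjusted p = 0.0964. Top2a was at 21.8 and 34.8 CPM in WT, 34.4, 152, 53.6 and 5.49 in YAP3d and 133, 196 and 73.5 in YAP7d. Its difference was 2.01 ± 0.81 (adjusted p = 0.206 with edgeR), and for Mki67, Cdk1 and Top2a YAP7d did not overlap WT. Ccnb1 was at 0 and 1.93 CPM in WT and 24.9 to 48.7 in YAP7d, and Aurkb at 10.9 and 1.93 in WT and 32.9 to 39.9 in YAP7d, with adjusted p = 0.0552 and 0.0852.

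In T-cell-like cells the 39 members summed to 279 and 482 CPM in WT, 67.5, 846, 584 and 449 in YAP3d and 1823, 2480 and 1401 in YAP7d. All YAP7d libraries lay above the others, and YAP3d replicate 1 was the lowest. Of the 32 members tested, 0 passed between YAP7d and WT with edgeR (background 0%), with 29 at an unadjusted p below 0.05 and 10 called by DESeq2. Of all 6574 genes 8.56% were at an unadjusted p below 0.05, in either direction, and DESeq2 called 0.365% higher. All 32 fold changes were above 0 there, with a median of 1.98, though members high only in YAP7d enter the test through that group. Between YAP7d and YAP3d 9 members were higher (background 0.7% of 6574 genes), namely Cks2, Cdc20, Cdca3, Cenpe, Cenpf, Spc25, Tacc3, Stmn1 and Hmgb2, with a median of 1.93 over the 32. None was lower (background 0.122%). This count was 0 without YAP3d replicate 3 or YAP7d replicate 2 and with the Gm10709 term, 1 without YAP7d replicate 1, 4 without YAP3d replicate 1, 5 without WT replicate 1, WT replicate 2 or YAP7d replicate 3, and 14 without YAP3d replicate 2. With each library left out 0.0457 to 1.08% of all genes were called higher. Without YAP3d replicate 1 or 4 the count between YAP7d and WT was 5 or 3, with 0.092 or 0.128% of all genes. Between YAP3d and WT 0 passed (background 0%), 0 were at an unadjusted p below 0.05, DESeq2 called 0 and the median was 0.20. Macrophage markers summed to 55.3 to 208 CPM in WT and 275 to 605 in YAP7d in this class, those of monocytes to 1276 to 1496 and 1629 to 2141, those of endothelial cells to 166 to 452 and 47.8 to 74.7, and T-cell markers to 3522 to 4062 and 3203 to 3465. Of the class's 4 clusters 1 held 54 of 463 cells of WT, 104 of 904 of YAP3d and 128 of 389 of YAP7d, and another held 23 cells of YAP3d and 0 of WT or YAP7d. Markers of NK cells or ILC1 summed to 4890.5 CPM in YAP3d replicate 2, the YAP3d library with the highest sum of members, and to 538 to 940 in the other 8 libraries. Their part in the result was not tested.

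Cenpf, a protein of the outer kinetochore, was at 0 and 5.43 CPM in WT T-cell-like cells, at 0, 24.1, 18.3 and 8.65 in YAP3d and at 84.1, 129 and 40.6 in YAP7d. Cenpe, the kinesin that carries chromosomes to the spindle equator, was at 2.21 and 8.44 CPM in WT, 2.60, 12.1, 2.03 and 7.57 in YAP3d and 51.1, 68.0 and 19.7 in YAP7d. Tacc3, which stabilizes the fibres of the spindle, was at 13.3 and 12.1 CPM in WT, 0, 8.62, 16.2 and 7.21 in YAP3d and 56.1, 64.6 and 24.5 in YAP7d. For each the YAP7d libraries lay above all others, with replicate 3 the lowest of them. The log2 fold changes over YAP3d were 2.65 ± 0.53 (SE), 2.57 ± 0.52 and 2.44 ± 0.48, with adjusted p = 0.0417, 0.0424 and 0.0417 from edgeR.

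Cdca3 was at 4.42 and 9.64 CPM in WT T-cell-like cells, at 0, 19.0, 6.09 and 15.1 in YAP3d and at 42.9, 88.4 and 64.5 in YAP7d. Stmn1 was at 177 and 152 CPM in WT, 7.79, 155, 56.8 and 94.4 in YAP3d and 556, 646 and 349 in YAP7d. Cdc20 was at 2.21 and 6.63 CPM in WT, 5.19, 19.0, 14.2 and 7.57 in YAP3d and 39.6, 51.0 and 49.0 in YAP7d. These 3 genes did not overlap between YAP7d and YAP3d, and differed by 2.39 ± 0.47 (SE), 2.64 ± 0.46 and 2.14 ± 0.37 on the log2 scale (adjusted p = 0.0417, 0.0263 and 0.0263 with edgeR). The remaining core genes did not pass. Mki67 was at 39.8 and 22.3 CPM in WT, at 5.19 to 82.7 in YAP3d and at 61.5 to 180.3 in YAP7d, Top2a at 42.0 and 45.2, 2.60 to 117 and 111 to 299, and Cdk1 at 4.42 and 16.9, 0 to 25.9 and 52.0 to 71.4. For Mki67 and Top2a YAP3d replicate 2 lay above YAP7d replicate 3, and Cdk1 did not overlap. Aurkb was at 0 and 14.5 CPM in WT, 0 to 10.3 in YAP3d and 24.5 to 61.2 in YAP7d, and Ccnb1 at 0 and 8.44, 0 to 24.4 and 4.95 to 37.4.

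B-cell-like cells held few transcripts of the members. The 39 members summed to 185 and 136 CPM in WT, 142, 119, 66.3 and 201 in YAP3d and 230, 213 and 706 in YAP7d, so that all YAP7d libraries lay above the others and replicate 3 was the highest. In the same library markers of plasma cells, the antibody-secreting form of B cells, summed to 6752 CPM with 12 of 12 detected, against 625 and 752 with 8 of 12 in the other YAP7d libraries and 587 to 1989 in WT and YAP3d. The sums of members in YAP7d replicates 1 and 2 rest on 25 and 32 UMIs. Their small distance from the highest YAP3d library cannot be read as a difference. Macrophage markers in this class summed to 48.3 to 217 CPM in WT, 29.5 to 161 in YAP3d and 258 to 644 in YAP7d, and endothelial markers to 338 to 608, 228 to 723 and 190 to 239. The part of these in the result was not tested. Only Cenpa, Smc4 and Hmgb2 were high enough to be tested, and 0 passed in any comparison (background 0% higher, and at most 0.0448% lower between YAP7d and WT), with 2 at an unadjusted p below 0.05 between YAP7d and WT (4.34% of all genes, in either direction) and 0 called by DESeq2. Mki67 was at 0 and 2.53 CPM in WT, 0 to 9.12 in YAP3d and 9.20, 6.65 and 59.1 in YAP7d. Cdk1 had 0 UMIs in both WT libraries and was at 9.20, 0 and 12.4 CPM in YAP7d. Top2a, Ccnb1, Cdc20 and Aurkb reached at most 34.2 CPM in any library, the level of Top2a and of Cdc20 in YAP7d replicate 3.

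**Figure D3:**
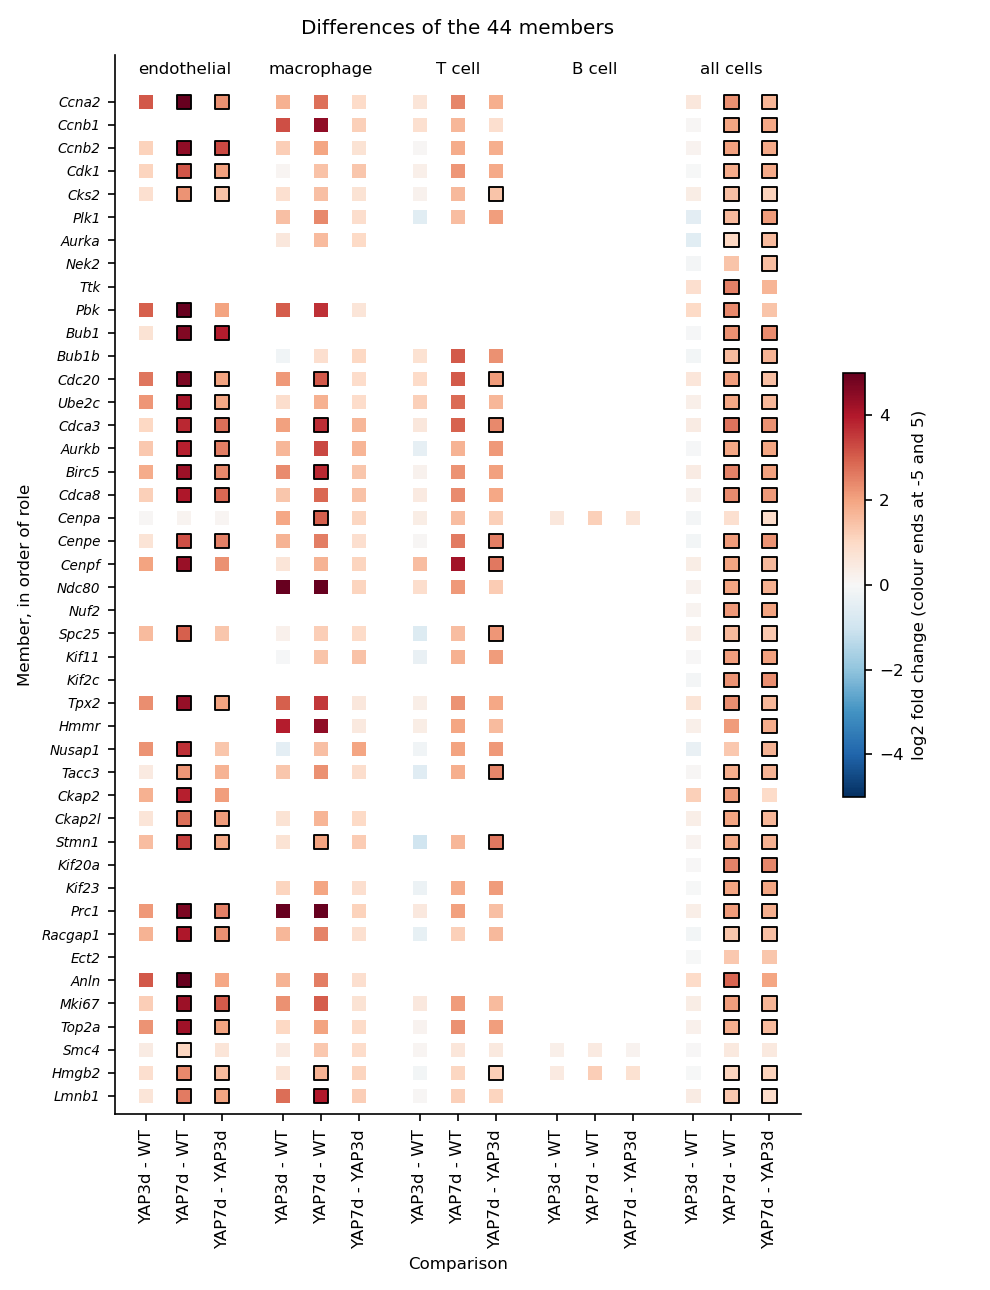
Log2 fold changes of the 44 members, in order of their roles, in the 4 main classes and over all cells for the 3 comparisons of groups. Black frames mark an adjusted p below 0.05 with edgeR, blanks mark members too low to be tested, and the colour ends at -5 and 5. The 38 members called between YAP7d and WT over all cells are seen as framed squares, and in B-cell-like cells only 3 members have values.

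In endothelial-like cells each role of the members had called genes among those tested between YAP7d and WT. Members high only in YAP7d enter the test through that group, and 14 were not tested, among them Plk1, Aurka, Nek2 and Ttk. The counts therefore do not cover whole roles. The called genes were 4 of 4 tested genes of cyclins and Cdk1, 4 of 4 of the checkpoint and anaphase-promoting complex, 3 of 3 of the passenger complex, 6 of 6 of the spindle, 3 of 3 of cytokinesis, 5 of 5 of chromosome structure, 3 of 4 of the kinetochore and the 1 tested mitotic kinase, Pbk, against 9.63% of all genes. Their medians ran from 2.61 for chromosome structure to 4.98 for Pbk. In macrophage-like cells no gene of cyclins and Cdk1, of the mitotic kinases or of cytokinesis was called (0.285% of all genes were), and the medians of the roles ran from 1.98 for cyclins and Cdk1 to 3.36 for the passenger complex.

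Differences between the classes were tested with an interaction term, with the library as a block. Beside Cenpa, the difference of YAP7d to WT was larger in endothelial-like than in T-cell-like cells for Hmgb2, Ccnb2 and Racgap1, 3 of 38 members tested, against a background of 1.76%. The sizes were 1.47 ± 0.34, 2.75 ± 0.67 and 3.00 ± 0.66 (SE) on the log2 scale, with adjusted p = 0.0278, 0.0348 and 0.0195 from edgeR. Hmgb2, which bends DNA, was at 94.6 and 146 CPM in WT and 718, 573 and 631 in YAP7d in endothelial-like cells, against 573 and 654 and 1243, 1486 and 1154 in T-cell-like cells. Racgap1, a subunit of the centralspindlin complex of cytokinesis, was at 0 and 4.32 CPM in WT and 54.2, 22.5 and 60.2 in YAP7d in endothelial-like cells, against 17.7 and 36.2 and 65.9, 57.8 and 72.3 in T-cell-like cells. The levels of Racgap1 in the 2 classes overlapped in YAP7d and did not overlap in WT. Lmnb1 was the 1 member called with a larger difference in endothelial-like than in B-cell-like cells, by 2.41 ± 0.66 (adjusted p = 0.0446 with edgeR). With a background of 2% there, this single call is a description only. Between macrophage-like and endothelial-like cells Cenpa was the 1 member of 38 called (background 0.168%). There 10 members were at an unadjusted p below 0.05 with a smaller difference in macrophage-like cells and 0 were called (background 0.985%), the nearest being Top2a at -2.39 ± 0.68 (SE; adjusted p = 0.0678 with edgeR). For macrophage-like against T-cell-like, macrophage-like against B-cell-like, and T-cell-like against B-cell-like cells 0 were called (backgrounds 0.0384%, 0.0388% and 0% for larger and 0.282%, 0.252% and 0% for smaller differences). At an unadjusted p below 0.05 there were 3, 3 and 2 members with a larger and 1, 0 and 0 with a smaller difference. These counts changed with single libraries. The 3 calls between endothelial-like and T-cell-like cells were 0 without either WT replicate or without YAP7d replicate 2 or 3 (0.0678 to 0.436% of all genes called larger), 1 without YAP7d replicate 1 (1.14%), and 16 without YAP3d replicate 4 (6.15%). The 1 call between endothelial-like and B-cell-like cells was 3 without YAP3d replicate 4 (4.92%), 1 without YAP7d replicate 3 (1.18%) and 0 without any other library (0.0814 to 1.57%) or with RLE normalization (1.91%). The median over all genes of these differences was 0.14 for endothelial-like against T-cell-like and 0.19 against B-cell-like cells, and -0.02 and -0.01 with RLE.

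Other classes differed in level and direction. In cells like NK cells or ILC1 14 of 18 members tested were higher in YAP7d than in YAP3d (background 8.03% of 4036 genes, and 5.62% lower) and 0 than in WT (background 3.52%, and 3.25% lower). Against WT 6 were higher at an unadjusted p below 0.05, as 22.6% of all genes were in either direction. Between YAP3d and WT 0 were called (background 0%), with 10 lower at an unadjusted p below 0.05 (1.96% of all genes, in either direction) and a median of -1.81. DESeq2 also called 0 there, and without the filter on low counts 8 of 44 were lower (0.0881% of all genes). The 39 members summed to 138 and 1594 CPM in WT and to 98.4, 973, 143 and 97.6 in YAP3d. The WT libraries thus lay far apart, and WT replicate 1 lay within the range of YAP3d. The count between YAP7d and YAP3d was 8 with DESeq2 (5.7% of all genes) and 4 with the Gm10709 term (1.83%). It was 6 of 17 tested without YAP3d replicate 4 (6.24%), 8 of 17 without YAP7d replicate 3 (7.43%), 22 of 30 without WT replicate 1 (6.57%) and 25 of 25 without YAP3d replicate 2 (7.9%). The class's 2 clusters held 56 and 51 cells of WT, 105 and 90 of YAP3d and 33 and 224 of YAP7d. Mki67 there was at 0 and 64.5 CPM in WT, 0, 96.3, 0 and 2.03 in YAP3d and 168, 149.8 and 122 in YAP7d. Cdk1 was at 0 and 59.1 CPM in WT, 0, 14.4, 0 and 4.07 in YAP3d and 39.8, 68.1 and 83.8 in YAP7d, which did not overlap YAP3d but overlapped WT.

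Cells like conventional dendritic cells, which turn over quickly from dividing precursors, had the highest WT level of the fitted classes. The 39 members summed to 2415 ± 1176 CPM (SD, n = 2) in WT, 685 ± 370 (n = 4) in YAP3d and 1633 ± 702 (n = 3) in YAP7d. Mki67 was at 266 and 76.3 CPM in WT, 81.2, 69.2, 136 and 44.2 in YAP3d and 137, 65.0 and 69.1 in YAP7d, so that all groups overlapped. None of 26 members was called in any comparison (background 0% higher, and at most 0.025% lower, between YAP7d and YAP3d), DESeq2 called 0, and 19 were lower in YAP3d than in WT at an unadjusted p below 0.05 (3.02% of all genes, in either direction). Without the filter on low counts 11 of 44 were called lower there (0.246% of all genes), and with a replicate block 7 of 26 (0.474%). In monocyte-like cells the sums were 71.3 ± 63.1 CPM (n = 2) in WT, 105 ± 65.2 (n = 2) in YAP3d and 302 ± 162 (n = 3) in YAP7d, and 0 of 11 members passed between YAP7d and WT (background 0.0162% higher and 0.113% lower), with 4 at an unadjusted p below 0.05 (7.61% of all genes, in either direction) and 0 called by DESeq2. Hepatocyte-like cells summed to 433, 4925, 1997 and 105 CPM in YAP3d, on 9 to 18 cells each, and to 1246, 1411 and 1380.0 in YAP7d, on 11 to 28 cells. They were not tested, since WT had 3 such cells.

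The share of cells with member transcripts was counted after each cell was thinned to 1500 UMIs, since cells of the libraries differ in depth, and 270 cells with fewer were left out. The share of endothelial-like cells with transcripts of at least 3 of the 44 members was 1.37 ± 1.17% (SD, n = 2) in WT, 6.05 ± 3.27% (n = 4) in YAP3d and 33.6 ± 1.02% (n = 3) in YAP7d. In macrophage-like cells it was 5.93 ± 0.0621% (n = 2), 14.5 ± 18.8% (n = 3) and 42.2 ± 1.89% (n = 3), and in T-cell-like cells 5.96 ± 0.505% (n = 2), 7.25 ± 4.64% (n = 4) and 19.9 ± 2.49% (n = 3). Without thinning the shares were 10.2, 19.8 and 75.9% in endothelial-like cells and 23.6, 41.0 and 89.3% in macrophage-like cells.

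Neutrophils no longer divide. With all 44 members 29.2% of the neutrophil-like cells counted in WT, 37.8% in YAP3d and 17.6% in YAP7d passed, above the WT shares of the 3 classes just given, so that the shares over all 44 cannot be read against this background. With the 39 members it was 0 of 135 cells in the 4 libraries with at least 10 of them, which allows a share of up to 2.22%. With these 39 the share of endothelial-like cells was 0 and 0.398% in WT, 3.51, 3.92, 4.63 and 0.259% in YAP3d and 29.2, 26.1 and 17.2% in YAP7d. The exact Clopper-Pearson 95% intervals of the YAP7d libraries were 12.6 to 51.1, 10.2 to 48.4 and 8.90 to 28.7%, which cover counting error only. The highest upper bound in WT was 1.97%, so WT and YAP7d did not overlap within counting error.

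Macrophage-like cells had shares of 5.88 and 1.49% in WT and 26.5, 29.0 and 23.6% in YAP7d, and in YAP3d 26% in replicate 2 against 6.25 and 1.23% in replicates 3 and 4 (replicate 1 had 8 cells left). T-cell-like cells had 3.16 and 1.68% in WT, 0, 5.93, 4.08 and 1.19% in YAP3d and 13.4, 13.8 and 8.12% in YAP7d. In cells like NK cells or ILC1 the shares were 0 and 3.66% in WT, 0 to 2.56% in YAP3d and 15.5, 16.1 and 22.5% in YAP7d. In B-cell-like cells 3 of 48 cells of YAP7d replicate 3 (6.25%) and 0 cells of the other YAP7d libraries had them. Cells like conventional dendritic cells had 30.8 and 16.1% in WT, 0 to 10.1% in YAP3d and 18.4, 10.5 and 24.3% in YAP7d, without separation of WT and YAP7d. Over all classes, cells with the transcripts had more UMIs in all, with a median of 12402 against 4065 for the rest in WT and 16278 against 9131 in YAP7d. Scrublet called 60 doublets among all cells, and without them 27 of 29 members were called between YAP7d and WT in endothelial-like (9.64% of all genes) and 7 of 36 in macrophage-like cells (0.286%). Between YAP7d and YAP3d 14 of 29 were then called in endothelial-like cells (9.16%), where 21 of 30 were called with them, and 9 of 32 in T-cell-like cells (0.746%).

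**Figure D4:**
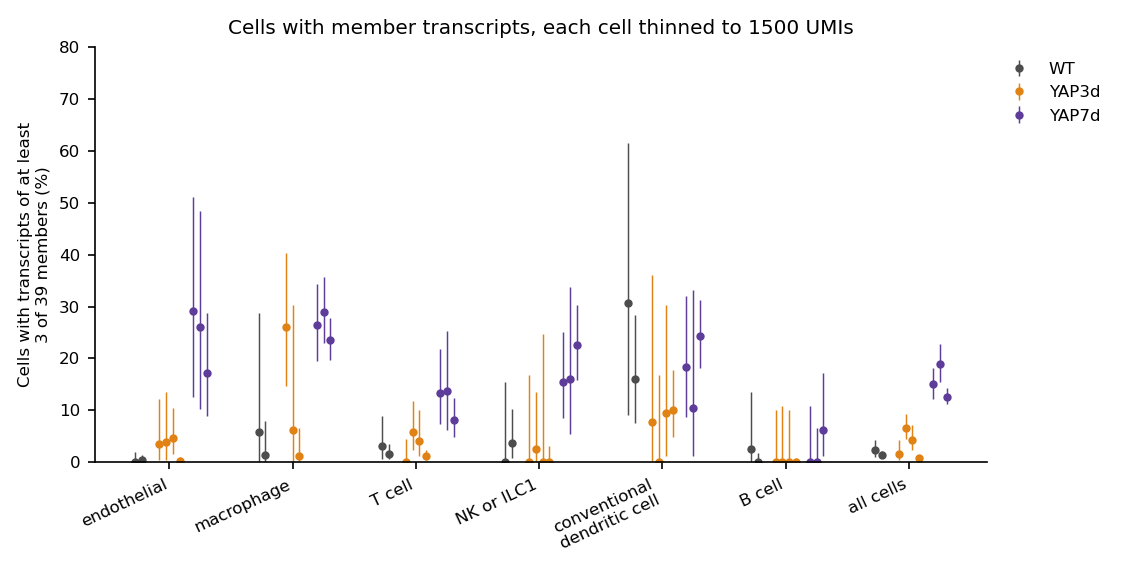
Percent of cells with transcripts of at least 3 of 39 members, after each cell was thinned to 1500 UMIs, for libraries with at least 10 cells left in the class. Points are libraries and lines exact 95% intervals for counting error. The YAP7d libraries reach 17.2 to 29.2% in endothelial-like cells, where WT stays at or below 0.398%.

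The members occurred together in single cells. Of the cells with an Mki67 transcript after thinning 118 of 260 (45.4%) also had a Top2a transcript, against 2.74% of the cells without Mki67. Cdk1 was found in 20.4% of the cells with Mki67 and in 1.95% of those without. For 37 of the 44 members over 85% of their UMIs, without thinning, lay in cells with transcripts of at least 3 other members of the 39, and such cells were 15.4 to 17.1% of all, depending on the member. Hmmr, a spindle protein and hyaluronan receptor, had the highest share (99.2%). Smc4 (54.8%), Cks2 (66.6%), Lmnb1 (67.8%), Cenpa (68.5%), Hmgb2 (71.0%) and Racgap1 (74.5%) had the lowest. In WT the shares of these 6 were 24.3 to 59.3%, and Cenpa had 26.7% in WT, 29.9% in YAP3d and 87.7% in YAP7d. The depth of the cells moves with the groups, and its part in these shares was not tested.

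**Figure D5:**
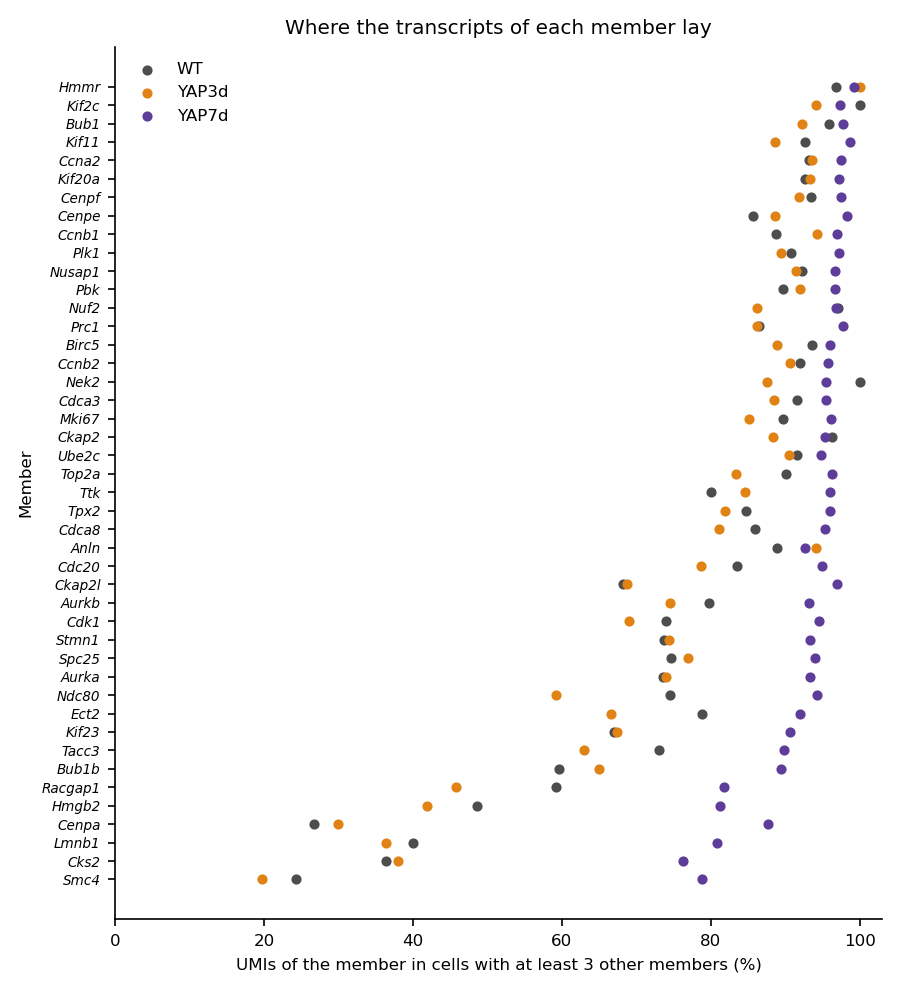
Percent of the UMIs of each member that lay in cells with transcripts of at least 3 other members of the 39, over all cells of WT, YAP3d and YAP7d. Points are groups. Hmmr lies at the top (99.2% over all cells) and Smc4 at the bottom (54.8%). For Cenpa, Lmnb1, Cks2 and Smc4 YAP7d lies far above WT and YAP3d, which lie close to each other.

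The other genes of the cell cycle were counted in lists of 30 genes of DNA replication and S phase, 40 further genes of mitosis and G2, 18 of G1 and 18 inhibitors. A gene that is high only in YAP7d enters the test through that group, so the counts do not stand for the whole lists. In endothelial-like cells 23 of 27 tested genes of DNA replication and S phase, 13 of 15 further genes of mitosis and G2, 6 of 14 of the G1 cyclins, kinases and E2F and 1 of 17 cell cycle inhibitors were higher in YAP7d than in WT, against 9.63% of all genes tested. In the same cells 5 inhibitors and 1 G1 gene were lower, against 8.75%. The medians were 2.46, 3.26, 1.15 and -0.83 on the log2 scale. Tk1, the thymidine kinase of S phase, differed by 5.82 ± 0.73 (SE; adjusted p = 8.43e-05 with edgeR) and Knstrn, a spindle protein, by 5.53 ± 0.91 (adjusted p = 0.000612). The transcription factor gene E2f1 differed by 3.35 ± 0.65 (adjusted p = 0.00216), Myc by 3.26 ± 0.51 (adjusted p = 0.000389), and the inhibitor Cdkn1c by -3.64 ± 0.56 (adjusted p = 0.000359). In macrophage-like cells 2 of 30 genes of S phase, Tk1 and Mcm6, were higher between YAP7d and WT (0.285% of all genes) and none of the other lists, and in T-cell-like cells none were (0% of all genes). In cells like NK cells or ILC1 Dut, Fen1, Gmnn, Lig1, Mcm2, Mcm3, Mcm5, Mcm6, Mcm7, Tk1, E2f1 and Cenpw were higher between YAP7d and WT (3.52% of all genes). No other listed gene was higher there, and Btg1 and Btg2 were lower (3.25%). Between YAP7d and YAP3d T-cell-like cells had 7 of 26 genes of S phase and 6 of 17 further mitotic genes higher, against 0.7% of all genes. Foxm1, the transcription factor that activates many of the members, and Mybl2, which codes for B-Myb, were too low within the 4 classes. Over all cells Foxm1 differed by 1.80 ± 0.53 (adjusted p = 0.0407 with edgeR) and Mybl2 by 2.61 ± 0.82 (adjusted p = 0.0507) between YAP7d and WT.

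Over 36 sums of cells by library and main class the genes outside all lists whose level was most like the summed members were 2810417H13Rik (Spearman's rho 0.937) and Cks1b (0.906), followed by Gapdh, Diaph3, Erh, Cfl1, Slc25a5, Nme1, Actg1 and Ola1, at 0.859 to 0.820. These sums share libraries and depth, and the values are a description. By the RefSeq annotation 7 members overlap another protein-coding gene, from Cdc20 with Elovl1 by 53 bases to Kif20a with Cdc23 by 4930 bases and Prc1 with Rccd1 by 21669 bases, nearly all of the Prc1 locus, so that their counts could hold reads of both.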

How the data were processed

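Droplet-based 3' single-cell RNA sequencing was carried out on liver cells of 9 libraries (WT, 2; YAP3d, 4; YAP7d, 3). The authors aligned reads and counted UMIs with Cell Ranger against mm10 and analysed them with Seurat 2, as named in the submitters' processing notes and the methods, and deposited 1 table of raw UMI counts of 27998 genes in 8562 cells. Libraries held 1288940 to 25056881 UMIs.

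Cells with under 200 genes were left out. The others were clustered with scanpy 1.11.5 (Python 3.11.15; 2436 variable genes without cell cycle genes, 30 principal components, 15 neighbours, Leiden resolution 1) and named from 176 markers in the table. Scrublet doublets were kept. UMIs were summed per library and class with at least 10 cells, and the 3 groups were fitted together with edgeR 4.0.16 (R 4.3.3; TMM normalization, filterByExpr, quasi-likelihood test, Benjamini-Hochberg adjustment over all genes tested, threshold 0.05). The scripts were tested on simulated counts. CPM is per 1000000 UMIs of the class in a library. Differences between classes were fitted as interactions with the library as a block. Shares of cells used cells thinned to 1500 UMIs. Intervals and limits from a count of 0, set at 3 counts, cover counting error only.

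Alternatives were RLE normalization, no filter on low counts, DESeq2 1.42.0, a replicate block, stricter cell filters, clustering at resolution 2 and removal of doublets (these 3 not over all cells), other thinning and thresholds, each library left out and, chosen after seeing the data, a term for libraries with Gm10709 transcripts. The members and lists were chosen with earlier results of these data known. Values by library are given for Mki67, Top2a, Ccnb1, Cdk1, Cdc20 and Aurkb, and in each class and comparison for up to 5 further called members with the largest changes and at least 10 CPM in a group. Statements on overlap of their values between groups have no share over all genes beside them and are descriptions. Cenpa and the members called between classes were singled out after their values were seen. No 2 replicate libraries had the same counts within sampling noise (chi-square per degree of freedom 3.52 to 48.4, which also holds differences in cell composition).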

Additional observations from a re-analysis of the deposited data

Results flagged for a closer look

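In groups of 4 libraries, 1 library stood apart from the others by Dixon's 95% criterion in 5 of 39 groups tested. The criterion is met by chance in about 1 in 20 groups of continuous values, and no chance value holds for these sparse counts. These were Aurkb in macrophage-like cells of YAP3d replicate 2 (24.1 CPM), Ccnb1 in endothelial-like cells of YAP3d replicate 3 (5.37 CPM), and in B-cell-like cells of YAP3d replicate 4 Ccnb1 (4.58 CPM), Cdk1 (4.20 CPM) and the percent of cells with transcripts of at least 3 of the 44 members (4.14%). YAP3d replicate 4 held 676 of the 784 B-cell-like cells of its group, and the other 3 libraries had 0 UMIs of Ccnb1 and of Cdk1 in this class, so that any level above 0 in the fourth meets the criterion. A count of 0 in those 3 libraries allows levels of up to 22.1 to 27.4 CPM, above the values of replicate 4. The 5.37 CPM of Ccnb1 in endothelial-like cells rest on 3 UMIs, and a count of 0 in replicates 1 and 2 allows up to 10.4 and 13.8 CPM there. No difference between libraries can be read from these 3 values.

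For 5 members the difference of YAP7d to WT itself differed between classes with edgeR's interaction test. It was larger in macrophage-like than in endothelial-like cells for Cenpa, by 2.97 on the log2 scale, with 0.168% of all genes called larger. It was larger in endothelial-like than in T-cell-like cells for Hmgb2 (1.47), Ccnb2 (2.75) and Racgap1 (3.00), with 1.76% of all genes. Endothelial-like against B-cell-like cells had a larger difference for Lmnb1 (2.41), with 2% of all genes. These calls changed with single libraries, as given above. The classes also differed in which clusters held their cells in WT and YAP7d, and the part of this in the differences was not tested.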

How the results depend on the processing

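Counts are of members called higher, each followed by the percent of all genes called higher under the same setting. Without the filter on low counts, macrophage-like cells had 29 (1.54%) between YAP7d and WT and 9 (0.481%) between YAP7d and YAP3d, endothelial-like cells had 6 (0.121%) between YAP3d and WT and 34 (5.03%) between YAP7d and YAP3d, T-cell-like cells had 26 (0.724%) between YAP7d and WT and 32 (1.62%) between YAP7d and YAP3d, and B-cell-like cells had 3 (0.32%) between YAP7d and YAP3d. Cells like NK cells or ILC1 then had 4 (1.43%) between YAP7d and WT and 31 (3.99%) between YAP7d and YAP3d, those like conventional dendritic cells 11 (0.56%) between YAP7d and YAP3d, and monocyte-like cells 2 (0.257%) and 4 (0.139%). With DESeq2 T-cell-like cells had 10 (0.365%) and 20 (1.29%), and cells like NK cells or ILC1 had 8 (5.7%) between YAP7d and YAP3d. Same-numbered libraries correlated at -0.285 to 0.209 over all cells. Over all cells and in the 4 main classes, pairs of replicate 1 lay at 0.0383 to 0.308 and those of replicates 2 and 3 at -0.389 to 0.122. Whether the numbers mark pairs of libraries was not tested. With a replicate block macrophage-like cells had 5 (0.195%) between YAP3d and WT and 25 (2.05%) between YAP7d and WT, endothelial-like cells had 2 (0.067%) between YAP3d and WT and 9 (5.75%) between YAP7d and YAP3d, and T-cell-like cells had 24 (0.974%) between YAP7d and WT and 25 (2.51%) between YAP7d and YAP3d. Cells like NK cells or ILC1 had 4 (4.16%) between YAP7d and WT and those like conventional dendritic cells 1 (0.125%) between YAP7d and YAP3d. With the Gm10709 term the counts between YAP7d and WT were 0 (0%) in macrophage-like cells, 2 (1.78%) in endothelial-like cells and 0 (0%) over all cells, and those between YAP7d and YAP3d were 3 (3.2%), 0 (0.0456%) and 3 (0.157%) in endothelial-like cells, T-cell-like cells and all cells, and 4 (1.83%) and 2 (0.0998%) in cells like NK cells or ILC1 and conventional dendritic cells. Top2a in macrophage-like cells was then at -0.74 between YAP7d and WT. With stricter cell filters macrophage-like cells had 0 (0.0786%) between YAP7d and WT. With RLE normalization 2 members (1.53% of genes) had a larger difference in endothelial-like than in T-cell-like cells, against 3 with TMM, and 1 (0.631%) a smaller one. In endothelial-like against B-cell-like cells 0 (1.91%) then had a larger difference. The cause of these changes was not tested. The rise in the share of cells from WT to YAP7d was 36.3, 32.3, 13.9, 4.12 and 21.3 percentage points in cells like macrophages, endothelial cells, T cells and B cells and in all cells. It was 51.9, 44.8, 24.5, 17.0 and 32.9 thinned to 3000 UMIs and 65.6, 65.7, 35.6, 20.7 and 52.6 without thinning. Without B-cell-like cells, in the same order, it was 21.2, 17.8, 9.02 and 12.7 with at least 5 members and 22.7, 23.9, 9.35 and 13.6 without the 5 widely expressed members. The ratio of summed levels of YAP7d to WT over all cells was 2.60 for 44 members and 3.36 for 39, and 3.77 and 5.62 with the 4 main classes weighted equally. With each library left out in turn, the counts for YAP3d against WT, YAP7d against WT and YAP7d against YAP3d ranged from 0 to 0, 0 to 23 and 0 to 21 in macrophage-like cells, 0 to 4, 19 to 32 and 12 to 25 in endothelial-like cells, 0 to 0, 0 to 5 and 0 to 14 in T-cell-like cells, and 0 to 0, 3 to 41 and 27 to 44 over all cells. Between YAP7d and WT the percent of all genes called higher then ranged from 0 to 3.55, 4.82 to 11.5, 0 to 0.128 and 0.270 to 11.4 in the same order, and between YAP7d and YAP3d from 0 to 3.13, 6.22 to 9.66, 0.0457 to 1.08 and 2.43 to 12.97. Between YAP3d and WT it was 0 to 0.0625 in endothelial-like cells and 0 in the others. In cells like NK cells or ILC1 the 3 counts ranged from 0 to 0, 0 to 3 and 6 to 25 (0 to 0.0259%, 0.424 to 4.56% and 5.69 to 8.0% of all genes), and in those like conventional dendritic cells from 0 to 1 between YAP7d and YAP3d. Members with a larger and a smaller difference ranged from 0 to 1 and 0 to 3 for macrophage-like against endothelial-like cells, 0 to 16 and 0 to 1 for endothelial-like against T-cell-like cells, and 0 to 3 and 0 to 0 for endothelial-like against B-cell-like cells, and larger ones from 0 to 1 for macrophage-like against T-cell-like or B-cell-like cells. The share differences ranged from 35.3 to 37.1, 31.5 to 33.1, 12.5 to 14.9, 2.09 to 5.74 and 19.8 to 22.4 points. Of the values of single members under the alternatives, 472 kept direction and side of the threshold, 113 lost the call, 34 gained it and 1 changed sign. Endothelial-like cells of YAP7d (111) and macrophage-like cells of WT (98) were few, and members with few UMIs there rest on single transcripts.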
